A study of Drosophila melanogaster with 4 samples.

Results

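The 200 brightest probes of female-limited transcripts of the adult fly were examined on the 4 arrays of a study of prenatal hyperbaric normoxia (HN). Female-limited here means past the 16-fold limit given below and does not mean absent in males. On both male arrays 178 of the 200 were well above background. Members were chosen by their measured signal in females against males, so the sex difference itself is given as a description only. A probe qualified if it carried a FlyBase transcript identifier (FBtr), was well above background on both female arrays, and had a geometric mean signal in females at least 16 times that in males. Signal here means the background-subtracted intensity divided by the median intensity of all probes on the same array. Of 32162 probes, 21498 carry a transcript identifier, and 16769 of these were well above background on both female arrays. The 16-fold limit was met by 1595 of them (9.51%), and the 200 with the highest mean female signal were taken. They stand for 186 transcripts. The mirrored limit, applied to males, was met by 2315 probes.

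RNA came from whole bodies of 10-day-old D. melanogaster of the strain w1118, a white-eyed laboratory stock that the labels call wild type. HN flies had been kept from egg to eclosion at 2 atmospheres absolute in normoxic conditions, and control flies had not. Flies of each sex and treatment were pooled. The RNA of a pool was labelled with a single dye and measured on 1 Agilent array. The 4 groups are therefore control females, HN females, control males and HN males, with 1 array each. No test between groups was made, because no group had a replicate, and error was measured only between repeat spots of a probe on the same array.

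In an adult female fly the ovaries fill much of the abdomen. Nurse cells in each egg chamber synthesize RNA and protein and load them into the oocyte, so that mature eggs hold a large maternal store of transcripts. The somatic follicle cells around them secrete the vitelline membrane and the chorion, the layers of the eggshell, in short bursts late in oogenesis. Yolk proteins are made in the fat body and in follicle cells. Males lack all of these tissues apart from the fat body. Which of these sources a given member comes from is not known here, because the files pair no gene symbol with a transcript identifier and none of the 186 identifiers was found in the RefSeq gene table. Members are therefore named by identifier, and no gene function or sequence is given.

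The labelled sexes were checked on other probes that could be named through an accession. Vm34Ca, a vitelline membrane protein of the follicle cells, had a signal of 99.8 in control females and 107 in HN females and was not well above background in either male group. Dup99B, a peptide of the male ejaculatory duct, had a signal of 18.7 in control males and 18.5 in HN males, against 0.0222 in control females and 0.111 in HN females. The testis gene soti was not well above background on any array. The median intensity of an array lay between 180 and 453, being higher on both male arrays, and 67.0% to 78.5% of probes were well above background. No spot was saturated. All arrays lie on 1 slide, but the control male array was scanned separately from the rest, so scan and treatment cannot be told apart in males.

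A pair of members owed their place to a single flawed spot on the HN female array. For FBtr0074918, the only spot on that array read 256.4 times the array median and was flagged by the scanner software as non-uniform. Its median pixel was 720, against a processed intensity of 46121. In control females the same spot read 2.95 times the median. For FBtr0086861, 1 of its 2 spots in HN females read 622 and carried the same flag, whereas the other read 7.21. Its 2 spots in control females read 7.67 and 7.38. Flagged spots were left out of the values below, except where values of the rule itself or of another setting are given. FBtr0086861 then had a signal of 7.21 in HN females, and FBtr0074918 had no value there, so 199 members could be compared between the female arrays. The other 198 members had no flagged spot on any array.

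Those 198 members were bright on both female arrays and dimmer on both male arrays. Their lowest signal on any female array was 108, and the highest signal of any member on a male array was 43.5. Most members were not dim among the probes of a male array. The median signal over all members lay above the array median in control males and in HN males alike. The members together held 6.86% of the summed intensity of all probes in control females and 6.70% in HN females, compared with 0.362% in control males and 0.347% in HN males. Brightness also depends on the sequence of a probe, so the order of the members is an order of signals and not of RNA amounts. In whole bodies, fewer cells of a type and less RNA per cell cannot be told apart.

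**Figure D1:**
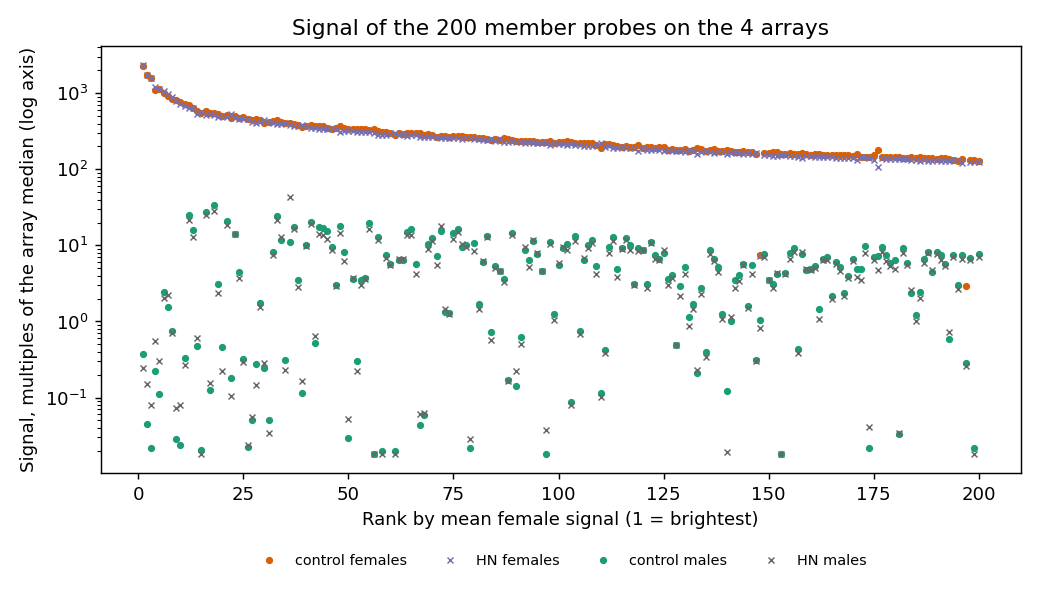
Signal of each of the 200 members on the 4 arrays, in multiples of the array median on a log axis, against the rank by mean female signal. The female points form 1 narrow band above 100 and the male points scatter from the floor to 43.5; the exceptions, 2 control female points at 7.53 and 2.95 and an HN female point at 7.21, belong to the members chosen through a flagged spot.

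The brightest member was FBtr0071424, with a signal of 2260 in control females and 2329 in HN females, against 0.377 in control males and 0.243 in HN males. FBtr0076573 followed with 1732 in control females and 1757 in HN females, against 0.0453 in control males and 0.152 in HN males. FBtr0076574 reached 1589 in control females and 1582 in HN females, with 0.0216 in control males and 0.0798 in HN males. In each of these the female arrays were nearly level and neither male array exceeded 0.377.

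FBtr0079239 had a signal of 1116 in control females and 1204 in HN females, against 0.223 in control males and 0.554 in HN males. The brighter probe of FBtr0080521 had 1129 in control females and 1147 in HN females, against 0.113 in control males and 0.302 in HN males. FBtr0073821 read 1006 in control females and 1057 in HN females, and kept a measurable signal of 2.43 in control males and 2.05 in HN males. These 6 were the only members with a mean female signal over 1000. The next 4 were FBtr0076572, FBtr0070749, FBtr0079171 and FBtr0071203, whose signals ran from 976 in HN females for the first to 727 in HN females for the last.

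Beyond these the signals fell off slowly. Only 22 members had a mean female signal over 500, and 87 lay under 200, including the 2 with a flagged spot. Over the members, the median signal was 229 in control females and 215 in HN females. The values at the limits are those of the rule, which kept all spots. By these, the last members inside the limit of 200 had mean female signals of 128.5 (FBtr0072883) and 128.1 (FBtr0303407). The first probes outside it had 128.0 (FBtr0073622) and 127.0 (FBtr0073741). At the 16-fold limit, FBtr0081635 and FBtr0071367 lay just inside, at 16.02 for both. Just outside lay FBtr0305585 at 15.97 and FBtr0113417 at 15.91, and the latter fell to female signals of 49.2 and 43.2 once flagged spots were left out.

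Signals of the members spread far more in males than in females, which follows in part from the rule. It took the highest female signals and set only an upper limit on the male ones. On both male arrays 178 of the 200 (89%) were well above background. A further 8 were so on the HN male array alone and none on the control male array alone, while 14 were so on neither. The HN male array also had more probes above background in general, at 78.5% compared with 72.2% of all probes on the control male array. Among the 176 members measured in males and free of flagged spots, the female signal exceeded the male signal by 16.04-fold to 7574-fold, with a median of 36.7-fold.

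The fold was uneven across the members. It lay between 16 and 32 for 80 members, between 32 and 64 for 40, between 64 and 256 for 25, between 256 and 1024 for 13, and over 1024 for 40. In the band of 16 to 32 all 80 members were well above background on both male arrays, with a median male signal of 8.87. Over 1024-fold, 18 of the 40 were, and the median male signal was 0.0768. In control males the highest signal belonged to FBtr0076454, whose brightest probe read 34.3 in control males and 28.7 in HN males beside 543 and 523 in control and HN females. FBtr0332641 came next in control males with 27.9, and read 24.9 in HN males. FBtr0076496 and FBtr0084776 read 25.4 and 24.6 in control males, respectively, and FBtr0085652, the highest in HN males at 43.5, is described with the male comparison.

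The largest measured folds were those of FBtr0071424 at 7574, the brighter FBtr0080521 probe at 6170, FBtr0076393 at 3843, FBtr0076571 at 3658 and FBtr0079239 at 3302. For members not above background in males, only an approximate lower bound could be given. It sets the geometric mean of the female arrays against that of the male arrays, with each male array at the lowest signal that counted as well above background there, or at the probe's own if higher. A probe can lie above that lowest signal and still not count as well above background. FBtr0100003 read 0.122 in control males, where the lowest counted signal was 0.0780. The limit for a given probe can therefore be higher, and its fold lower, than the bound assumes. By this bound, the 14 members on neither male array were at least 2461-fold to at least 10619-fold higher in females. The latter was FBtr0112535, with 544 in control females and 567 in HN females. The 8 seen on the HN male array alone were at least 2656-fold to at least 20101-fold higher, the latter being FBtr0076574.

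**Figure D2:**
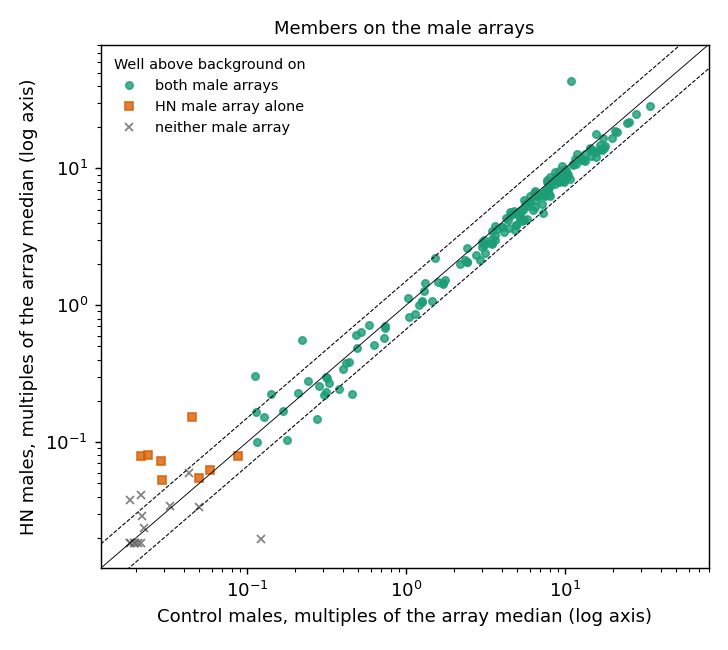
Signal of the members on the HN male array against the control male array, in multiples of the array median on log axes, marked by the male arrays on which they were well above background. The solid line is equality and the dashed lines are 1.5-fold; most points follow the line, and FBtr0085652 stands apart at 43.5 in HN males against 11.0 in control males.

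These folds rest on dividing each array by its median. Under that scaling, probes above background in all 4 groups were themselves higher in females, by a median log2 difference of 1.46. Without scaling this median was 0.35, and with the 75th percentile in place of the median it was -0.12. The members exceeded it by 4.01 on the log2 scale with the median, 4.01 without scaling, 3.99 with the 75th percentile and 3.34 with quantile normalization. The 16-fold limit itself fell at another place under each. Under the 75th percentile 91 of the 200 would still be members, and without scaling 116.

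Whether prenatal HN changed the female-limited transcripts was then examined on the female arrays. The rule that chose the members did not use the ratio between the female arrays, but it used both values in it. A probe not well above background on each female array could not become a member. The ratios are therefore not free of the choice. HN females differed little from control females. Across 199 members the median log2 ratio of HN over control was -0.08, compared with -0.06 across all 21093 probes above background in control and HN females alike. The middle 50% of the members lay between -0.12 and -0.04. Of the 198 members free of flagged spots, 196 were within 1.2-fold between the female arrays, and their log2 signals on these arrays had a Pearson's r of 0.995. This correlation is across probes of the same 2 arrays and carries no p-value.

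No member was more than 1.5-fold higher in HN females, whereas 1.86% of all probes were. A single member was more than 1.5-fold lower, or 0.503% of the 199, compared with 1.63% of all probes. Dim probes vary more, so the same shares were taken over the 1394 probes at least as bright as the dimmest member without a flagged spot. The 198 members without a flagged spot are among these 1394. Of these, 1.43% were higher and 0.215% were lower. With 1 array per group, whether the members differ from other bright probes in this respect was not tested.

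The single lower member was FBtr0082900. Its signal was 178 in control females and 108 in HN females, a log2 ratio of -0.72 (1.65-fold lower). A second probe of this transcript was not a member and read 77.4 in control females and 47.7 in HN females, a log2 ratio of -0.70. In males the member probe read 7.23 in control flies and 4.72 in HN flies, and the second probe read 3.03 and 2.07. Both probes were lower in HN flies of both sexes, with log2 ratios in males of -0.61 and -0.55. Across the scaling and background settings tried, the ratio of the member probe in females lay between -0.81 and -0.65.

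The next lowest ratios were far smaller. FBtr0084384 read 193 in control females and 158 in HN females (log2 ratio -0.29). FBtr0088683 had a log2 ratio of -0.26, as did FBtr0088348, and FBtr0071982 had -0.23. At the other end, FBtr0073911 was highest, with 193 in control females and 223 in HN females (log2 ratio 0.21), followed by FBtr0076571 at 0.17, FBtr0080216 at 0.14, FBtr0079239 at 0.11 and FBtr0076572 at 0.09. All of these lay within 1.5-fold. The error of a ratio could be read from 95 members with 2 kept spots on both female arrays. Ratios of single spots had a standard deviation of 0.0355 on the log2 scale around the mean of the probe. The standard deviation across the 199 members was 0.0865, which was larger than the error between spots. Differences between pools of flies could not be measured.

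**Figure D3:**
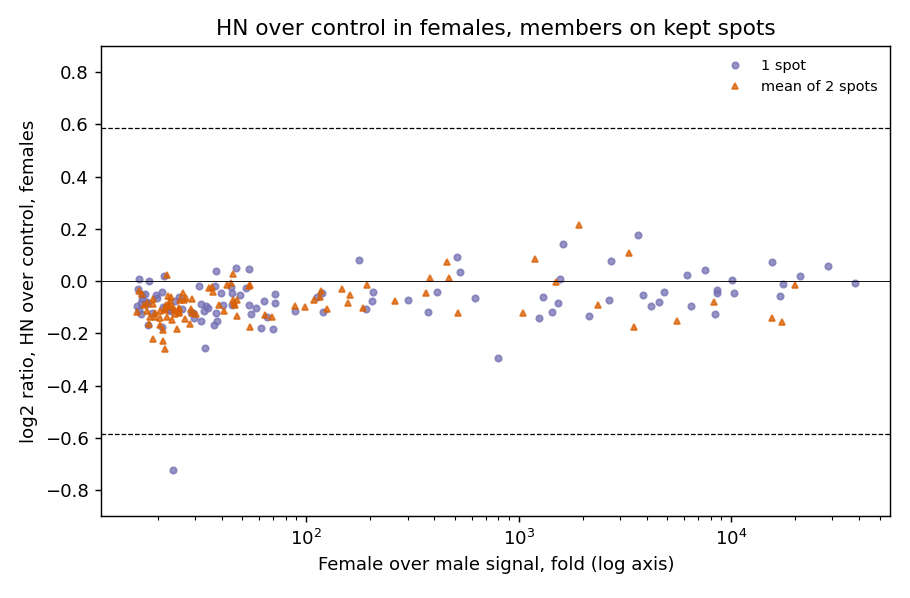
log2 ratio of HN over control in females against the female over male fold (log axis) for the 198 members free of flagged spots, with 1 point per probe, marked by the number of spots. Dashed lines mark 1.5-fold in either direction; only FBtr0082900 at -0.72 lies beyond them.

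With each array divided by its median, small ratios were more often negative. Of the 199 members, 172 (86.4%) had a signal lower in HN than in control females, compared with 64.6% of all probes and 66.0% of the 1394 bright probes. These shares depend on where the scaling puts 0. The median of the members minus that of all probes was -0.03 on the log2 scale, and lay between -0.06 and -0.02 across the scaling and background settings tried. The 80 members in the 16 to 32-fold band had a median log2 ratio of -0.10, with 76 of them below 0. The medians were -0.08 in the 32 to 64-fold band and -0.08 in the 64 to 256-fold band. They were -0.04 in the 256 to 1024-fold band and -0.05 above 1024-fold, where 27 of 40 were below 0. Medians of the band above 1024 and the band of 16 to 32 differed by 0.06 on the log2 scale, and by 0.03 under quantile normalization.

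The same ratio was taken in bright probes with a smaller female over male fold. Their bands use the median scaling, under which probes above background in all 4 groups were higher in females by a median log2 difference of 1.46. For 242 probes between 0.5 and 2 times as bright in females as in males, the median log2 ratio of HN over control females was 0.18. For 391 probes between 2 and 4 times it was -0.01, for 389 probes between 4 and 8 times -0.06, and for 162 probes between 8 and 16 times -0.09. The 12 bright probes over 16 times that were no members had a median of 0.02, with 5 of them below 0. All ratios move together when a female array is divided by another number, so the zero line is set by the scaling. Quantile normalization did not move them alike. It took FBtr0073911 from 0.21 to 0.25 and the brighter FBtr0080521 probe from 0.02 to -0.02. With the 75th percentile the median of the members was -0.02, and without scaling -0.18. Among the members, the log2 ratio had a Pearson's r of 0.321 with the log2 fold and 0.322 with the log2 mean female signal over 198 probes, which share the same arrays and are not independent.

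**Figure D4:**
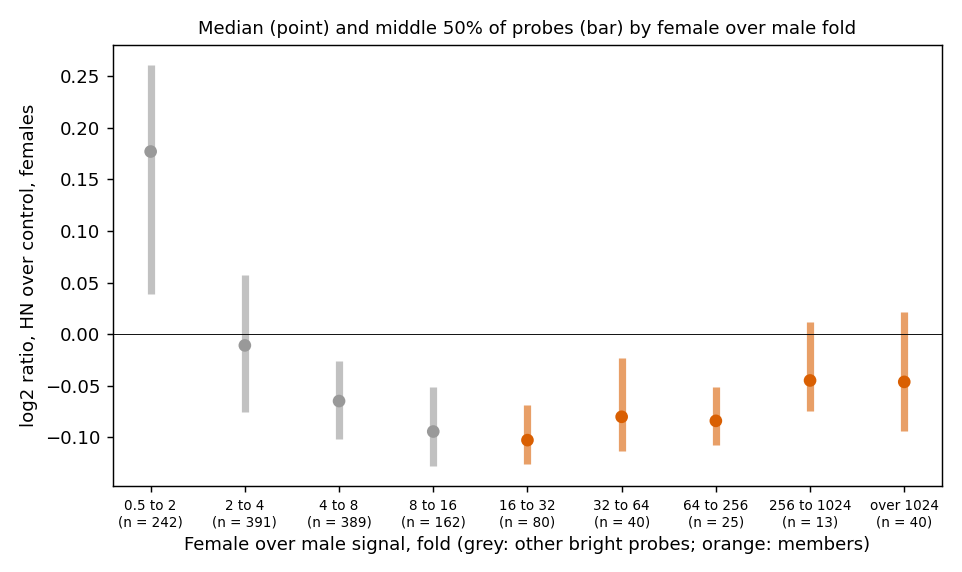
Median (point) and middle 50% of probes (bar) of the log2 ratio of HN over control in females, by the female over male fold; grey marks bright probes that are no members and orange the members; the 12 other bright probes over 16-fold, with a median of 0.02, are not drawn. The median goes from 0.18 for probes of 0.5 to 2-fold under the median scaling to -0.10 for members of 16 to 32-fold and -0.05 for members over 1024-fold.

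Member probes of the same transcript had like ratios between the female arrays, as most members did. There were 11 transcripts with several member probes, 25 probes in all. Their log2 ratios of HN over control in females differed between probes of a transcript by 0.0018 to 0.0846, with a median of 0.047. FBtr0076454 had 4 probes, all of them members, with mean female signals of 344 to 533 and female over male folds of 17.0 to 25.1. Its log2 ratios in HN females lay between -0.12 and -0.05. FBtr0085919 had 3 member probes out of 5, with mean female signals of 243 to 371 and folds of 37.2 to 53.5. Its log2 ratios lay between -0.02 and 0.04.

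The other transcripts had 2 member probes each. In FBtr0080521 the brighter probe had a mean female signal of 1138 and the dimmer one 372, with folds of 6170 and 2712. In FBtr0071911 the signals were 467 and 325, and in FBtr0071201 they were 417 and 144. Member probes of 1 transcript could thus differ in brightness while their log2 ratios between the female arrays differed by at most 0.0846.

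The arrays also carried 65 probes for 54 of the members' transcripts that were not members themselves. The rule had scored these probes and left them out, for their fold, their female brightness or their background flag. Probes of the same transcripts that passed became members. The shares below therefore describe what the rule left over and are no independent check. Of the 65, 64 were well above background on both female arrays, and 44 of these 64 (68.75%) were at least 16-fold higher in females, beside 8.70% of all probes above background on these arrays. At least 4-fold was reached by 60. Their median fold was 23.6 and their median female signal 34.1. Their ratios between the female arrays could differ more from those of the members. For FBtr0073848 the log2 ratio of HN over control in females was -0.16 on the member, and 0.27 and -0.04 on its other probes, the first of which was dim at 0.322 in control and 0.389 in HN females. By contrast, the log2 ratios of FBtr0076196 were 0.07 on the member and 0.13 on its other probe. Its member probe read 286 in control females and 301 in HN females. Its second probe read 101 and 111 and was not well above background in males. By the same approximate bound it was at least 2024-fold higher in females.

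Probes of 1 transcript did not always agree. Of the 54 transcripts with other probes, 35 had every other probe at least 16-fold higher in females. Mismatches in some of the remaining transcripts follow. For FBtr0080344 the member probe read 270 and 255 in control and HN females and 16.6 and 14.8 in control and HN males. Its other probe was brighter in males, at 88.8 in control and 71.9 in HN males beside 7.78 and 7.76 in control and HN females. For FBtr0085893 the member probe read 380 and 368 in control and HN females and 3.47 and 2.87 in control and HN males. Its other probe was not well above background in females and read 1.04 and 0.852 in control and HN males. These were the 2 of 65 probes that were higher in males. FBtr0078336 had a further mismatch. Its other probe read 1.17 in control females and 1.02 in control males, beside 152 and 147 in control and HN females on the member. A further example was FBtr0071346, where the other probe was the brighter one. It read 456 and 442 in control and HN females but also 66.2 and 62.0 in control and HN males, a log2 difference of 2.81, whereas the member probe was 18.7-fold higher in females. Which part of a transcript a probe covers is not given in the sources used here.

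**Figure D5:**
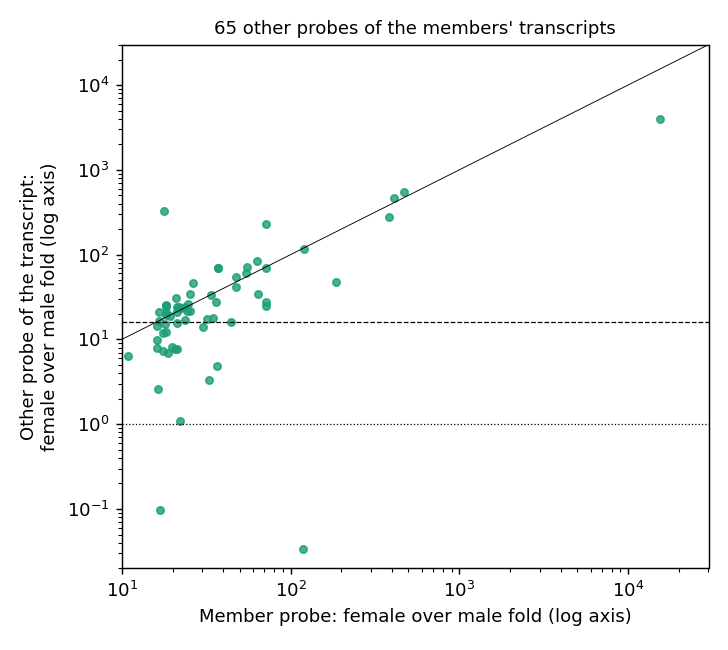
Female over male fold of each of the 65 other probes against that of the brightest member probe of the same transcript, on log axes. The solid line is equality, the dashed line 16-fold and the dotted line 1; 2 probes lie below the dotted line.

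In males, signals were compared between HN and control flies for the 178 members well above background on both male arrays. Their median log2 ratio was -0.14, compared with -0.07 over all 23092 probes above background in control and HN males alike. Higher by more than 1.5-fold in HN males were 4 members (2.25%), beside 2.3% of all probes. Lower were 5 (2.81%), beside 1.75% of all probes. Shares near those of all probes say nothing particular about the members. Across the 178 members the log2 signals of the 2 male arrays had a Pearson's r of 0.987, as a description across probes. Ratios of single spots had a standard deviation of 0.0892 in males, over 90 members.

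The largest male difference was that of FBtr0085652. It read 11.0 in control males and 43.5 in HN males, a 3.96-fold higher signal, beside 402 in control females and 378 in HN females. It has 1 probe with 1 spot. Its log2 ratio in males was 1.99 and lay between 1.93 and 2.33 across the settings tried. The other members beyond 1.5-fold and higher were dim in males. FBtr0080521 had log2 ratios of 1.42 and 0.53 on its 2 probes, and these were 0.47 and -0.08 with a normexp background correction. FBtr0079239 had 1.31, and 0.65 with normexp. FBtr0079238 had 0.66 and 0.28 on its 2 probes, and 0.10 and 0.09 with normexp. In control males these probes read from 0.113 to 0.522 times the array median.

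Among the members lower in HN males, FBtr0071419 had the largest difference, with 0.460 in control males and 0.226 in HN males (log2 ratio -1.03). Its female signals were level, at 501 and 504 in control and HN females. FBtr0073898 had a log2 ratio of -0.91, FBtr0076571 of -0.79, FBtr0071424 of -0.63 and FBtr0082900 of -0.61. Without scaling these were -0.56, -0.44, -0.29 and -0.27, so that none of the 4 was beyond 1.5-fold, and FBtr0071419 had -0.68. Leaving out the scaling raised all male ratios alike, and the median of all probes went from -0.07 to 0.27. With normexp FBtr0071419 had -0.72, FBtr0073898 -0.67 and FBtr0071424 -0.63. FBtr0076571 then had -0.583 and FBtr0082900 -0.44, both within 1.5-fold. Of these members, all but FBtr0082900 were dim in males, reading from 0.104 to 0.460 times the array median.

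Some members had successive identifier numbers, with 7 runs of consecutive numbers among the members' identifiers and 16 transcripts in them. The longest ran from FBtr0076571 to FBtr0076574, and all 4 were among the 22 brightest members. FBtr0076571 read 470 and 530.5 in control and HN females, and FBtr0076572 read 916 and 976. Male signals of this run ranged from 0.0216 to 1.53 in control males, and FBtr0076572 had the highest of them. Identifiers next below or above a member's, not members themselves, numbered 172 on the array. Of these, 27 (15.7%) had a probe past the 16-fold limit, beside 8.39% of all 15676 transcript identifiers. Whether neighbouring numbers belong to 1 gene is not given in the sources used here, and transcripts of 1 gene can share a probe's target.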

How the data were processed

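The authors deposited, for each array, the Feature Extraction output with 1 intensity per spot, background-subtracted by the software (release 11.5.1.1 per the file headers) and not scaled between arrays, and a table with 1 intensity per probe. Spot flags (well above background, non-uniform or population outlier) were also deposited. Per the methods, measurements under 5 were set to 5 and each chip was brought to its 50th percentile. Members were found with the mean of all spots. For all other values, spots with an outlier flag were left out and the remaining spots averaged. A probe was well above background where all of its kept spots were. Each array was divided by the 50th percentile of its non-control probes, and the floor of 5 was applied after this step rather than before it, as 5 over the common level of the arrays (273), a signal of 0.0183. Differences beyond 1.5-fold were counted. Python 3.11.15, pandas 2.3.3 and, for normexp, limma 3.58.1 were used. The code for the calls and the member rule was run on simulated data. Planted members there were brighter than any real member, and the noise was near the repeat-spot error. This checks the code and not the member list or the calls in these data. Normexp took spot medians, because spot means were not among the columns used. The members and the settings were chosen with earlier results of these data known. Named members are those brightest, extreme in a ratio or in males, nearest a limit, or with most probes; FBtr0080344, FBtr0085893, FBtr0078336, FBtr0071346, FBtr0076196, FBtr0073848 and the longest run of identifiers were chosen after their values were seen. The number of arrays limits the precision.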

Additional observations from a re-analysis of the deposited data

Results flagged for a closer look

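Some members differed between HN and control flies by more than 1.5-fold in one sex and had a ratio of the opposite sign in the other. The log2 ratio of HN over control was 1.99 in males and -0.088 in females for FBtr0085652. It was 0.66 in males and -0.062 in females for 1 probe of FBtr0079238. It was -1.03 in males and 0.0062 in females for FBtr0071419, -0.79 in males and 0.17 in females for FBtr0076571, and -0.63 in males and 0.043 in females for FBtr0071424. The sign in females is not fixed for 3 of these: it turned to -0.085 without scaling and -0.0067 with quantile normalization for FBtr0071419, to -0.048 without scaling for FBtr0071424, and to 0.0056 with the 75th percentile for the FBtr0079238 probe. Whether the ratio differs between males and females was not tested, since each group has 1 array. The control male array was scanned apart from the others, and the part of the scan in these ratios was not tested.

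The HN female spots that were left out read 622 times the array median for FBtr0086861 and 256.4 times for FBtr0074918, beside 7.38 to 7.67 and 2.95 in control females. A second probe of FBtr0074918 had no flag and read 37.1 in control females and 34.7 in HN females.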

How the results depend on the processing

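Of 65 values recomputed under other settings, 47 kept within the limits set for them (1.5 times for counts, the repeat-spot error for medians) and 18 moved. Members higher by over 1.5-fold in HN females were 0, but 2 with outlier spots kept, 1 with the deposited table of probe values and 3 among all 1594 probes past the 16-fold limit that had a ratio. Lower members were 1, but 0 among the 100 brightest, 0 at 2-fold and 32 among all probes past the limit. The median log2 ratio in females was -0.0159 with the 75th percentile and -0.175 without scaling. In males it was 0.208 without scaling, where all probes had a median of 0.274. The median female over male log2 ratio was 5.47, but 3.86 with the 75th percentile, 4.36 without scaling, 3.97 with quantile normalization and 5.19 with normexp. Of the 200 members, 91 remained with the 75th percentile, 116 without scaling, 101 with quantile normalization, 125 with a limit of 8-fold and 120 with a limit of 32-fold. The scaling moves the limit, and a lower limit admits brighter probes. Leaving out flagged spots, which was added to the settings after seeing the data, kept 198. Control arrays alone kept 193 and HN arrays alone 190. With 1 array in each group, no replicate could be left out. A joint fit of sex and treatment without their interaction would leave 1 residual degree of freedom and was not made.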
